A study of Mus musculus with 27 samples.

Results

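The clustered histone genes are the protein-coding genes whose symbols in GENCODE vM21 begin with Hist1h, Hist2h, Hist3h or Hist4h. They were chosen because their levels differed between the cell types and between the 2 libraries of each culture, so the values of those contrasts are a description. Calls made there are given only beside those over all genes and support nothing about the set. Of the 22524 genes counted, 65 belonged to this set, with 6 genes for the linker histone H1, 18 for H2A, 16 for H2B, 12 for H3 and 13 for H4. The Hist1 cluster on chromosome 13 held 52 of them, the Hist2 cluster on chromosome 3 held 10, Hist3 on chromosome 11 held 2 and Hist4 on chromosome 6 held 1. Another 2 genes of the clusters, Hist1h2bh and Hist1h2bm, were not analysed here.

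Core histones H2A, H2B, H3 and H4 form the protein spool of the nucleosome, and H1 binds the DNA between nucleosomes. Most genes of the clusters are switched on in S phase, when new DNA has to be packed, and their mRNAs end in a conserved stem-loop, bound by SLBP, in place of a poly(A) tail. A poly(A)-selected library is therefore known to recover such mRNAs poorly, whereas replacement histones such as H3.3 and H2A.Z are encoded elsewhere in the genome by ordinary polyadenylated mRNAs. Some clustered genes can also end further downstream at a poly(A) site, which is known above all from cells that have left the cell cycle.

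The data were 27 RNA sequencing libraries made after poly(A) selection. Jejunal organoids, which are epithelial cultures grown from intestinal crypts, came from male C57BL/6J wild-type mice of 8 to 12 weeks. Mice of the same facility were cohoused littermates. The SPF facilities SR and SE gave 3 mice each, and 3 germ-free mice came from a facility called GF. Each of these 9 cultures gave 1 library labelled untreated and 1 labelled TNF (5 ng/ml for 8 h), as did 3 cultures (M1 to M3) of m-ICc12, an immortalised mouse small intestinal epithelial line, while untreated mouse embryonic fibroblasts (MEF) gave 3 libraries (R1 to R3). The sources do not say that the m-ICc12 and MEF samples were separate cultures, so their spread may be technical. GF mice came from 1 facility only, so germ-free housing and that facility cannot be told apart. Litter and cage cannot be told apart from the facility either, in GF, SR or SE.

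The totals on genes ranged from 6071103 counts in the library labelled TNF of culture M1 to 43843615, and levels are counts scaled with TMM factors to a common library size (CPM). A floor of 3 counts corresponded to 0.0655 to 0.522 CPM, which covers counting error only. In all 12 pairs of libraries the names of the deposited data and the labels disagreed on the treatment, and the labels were followed. The TNF target Nfkbia lay between 149.6 and 226 CPM in organoid libraries labelled untreated and between 23.7 and 36.4 CPM in those labelled TNF, which goes against the labels, and the same held in all 3 m-ICc12 cultures. Of the TNF targets tested in edgeR, 6 of 7 in organoids and 7 of 8 in m-ICc12 were lower in libraries labelled TNF. These had an adjusted p under 0.05, against 1.39% and 0.11% of all genes, and 0 were higher. If the labels are exchanged, each library labelled TNF here is an untreated one, those of M1 and M3 included. Epcam, an epithelial adhesion molecule, lay between 883 and 1108 CPM in the organoids labelled untreated, but between 2.06 and 7.14 CPM in the 6 m-ICc12 libraries, where the mesenchymal marker Vim reached 1841 to 3001 CPM. Lars2 stood at 142200 and 43260 CPM in the libraries labelled TNF of M1 and M3 and at 6619 CPM in MEF R3, against 732 to 5681 CPM in the other 24 libraries.

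The stem-loop was looked for in the GENCODE vM21 transcripts of each member, as 16 bases that match the histone consensus and pair in the stem. It was found in 44 of the 65 members (67.7%) and in 14 of 21836 other genes with a protein-coding transcript (0.0641%). A member with no match may have a model that stops before the stem-loop, so its absence says only that these letters were not in the model. The stem-loops below belong to 4 abundant members and, last, to Hist1h1d and Hist1h4h, which were low in organoids and high in the m-ICc12 libraries labelled TNF of M1 and M3. Capitals mark the stem-loop and lower case the neighbouring 5 bases.
Hist1h1c: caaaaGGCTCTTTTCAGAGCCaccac
Hist3h2a: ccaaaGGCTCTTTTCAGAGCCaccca
Hist1h4i: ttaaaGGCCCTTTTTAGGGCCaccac
Hist2h3c1: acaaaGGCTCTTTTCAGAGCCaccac
Hist1h1d: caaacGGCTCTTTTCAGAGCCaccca
Hist1h4h: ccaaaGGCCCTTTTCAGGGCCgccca

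The search required a loop of 4 bases between paired arms, so all 6 have it, the abundant and the scarce members alike. The annotated transcript beyond the stem-loop varied in length. The models ran on for 840 bases in Hist1h1c, 1643 in Hist3h2a, 330 in Hist1h4i and 1167 in Hist2h3c1, but for 46 bases in Hist1h4h. Hist1h1d, however, ran on for 4884 bases and was low in organoids. The other 2 abundant members, Hist2h2be and Hist1h2bc, had no match in transcripts of 2620 and 1156 exonic bases.

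In the organoids labelled untreated, 6 members made up most of the histone signal. These were Hist1h2bc and Hist2h2be, both H2B genes, the linker histone gene Hist1h1c, the H2A gene Hist3h2a, the H4 gene Hist1h4i and the H3 gene Hist2h3c1. Together they held between 76.8% and 95.2% of the summed CPM of the 65 members in each of the 9 libraries. The sum itself ranged from 40.3 to 93.8 CPM, with a median of 55.7. By comparison, H3f3b, which encodes the replacement histone H3.3, alone had 556 ± 44.7 CPM (SD, n = 9), and H2afz, which encodes H2A.Z, had 257 ± 31.2 CPM. Markers of dividing cells were high in the same libraries, with 736 ± 88.2 CPM for Mki67 and 549.5 ± 61.5 CPM for Top2a.

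**Figure D1:**
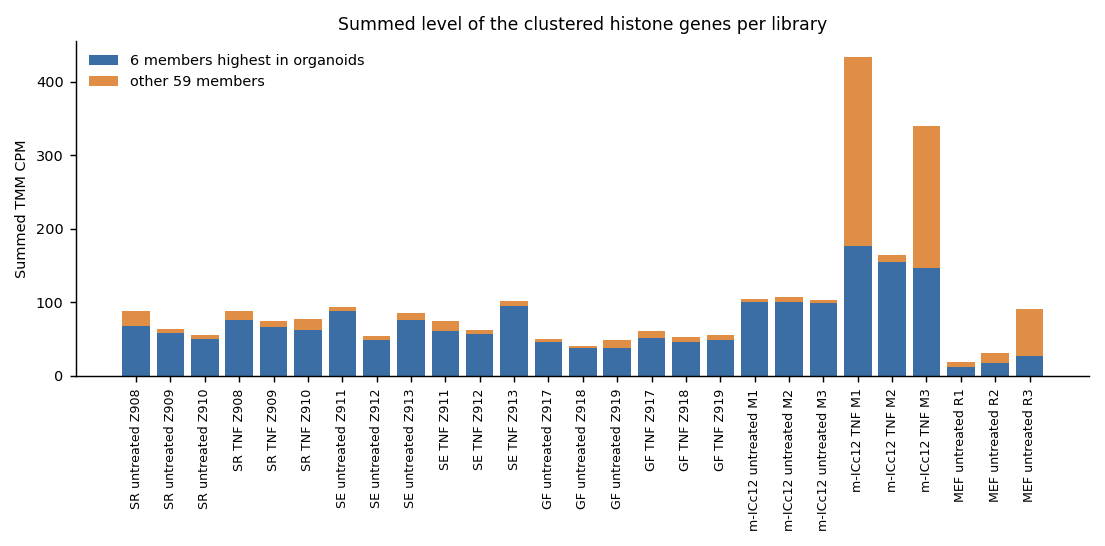
Summed TMM CPM of the 65 clustered histone genes in each of the 27 libraries, with the 6 members most abundant in organoids in blue and the other 59 in orange. The libraries labelled TNF of m-ICc12 cultures M1 and M3 reach 434 and 339.5 CPM, and the orange part makes up most of these bars, as it does in MEF R3 (91.3 CPM in all).

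Compared per kilobase of exon, since longer transcripts yield more reads, Hist1h2bc was the highest member in organoids with a mean of 16.7 CPM per kb. Hist1h1c followed with 6.86, Hist1h4i with 5.35, Hist2h2be with 5.28, Hist3h2a with 3.34 and Hist2h3c1 with 1.10 CPM per kb. For H3f3b the same scale gave 187 CPM per kb, so even the highest clustered gene stayed far below a replacement histone gene. The next members on this scale were Hist1h4f, Hist1h4k, Hist1h2bj and Hist1h1e. Their levels were uneven, and the mean of Hist1h4f rested on 3.13 CPM in Z908, with at most 0.0581 CPM in the other cultures. Hist1h4k had 1.47 CPM in Z909 and at most 0.577 elsewhere, and Hist1h2bj had 1.41 CPM in Z912 and at most 0.523 elsewhere. Hist1h1e, a linker histone gene, ranged from 0.0333 to 3.77 CPM.

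The values of the 6 abundant members varied between cultures. Hist1h2bc lay between 7.95 and 35.2 CPM with a median of 17.3, Hist2h2be between 6.97 and 20.4 with a median of 14.6, and Hist1h1c between 4.07 and 18.5 with a median of 11.6. Hist3h2a lay between 3.40 and 13.2 CPM with a median of 6.55, Hist1h4i between 1.28 and 8.77 with a median of 3.49, and Hist2h3c1 between 0 and 4.13 with a median of 2.31. These ranges overlap, so that the order of neighbours in this list did not hold in every culture. Hist2h3c1 was at 0 counts in Z908 and Z911, and none of its 100-base windows was unique, because it shares its sequence with Hist2h3b, Hist2h3c2 and the models Gm20628 and Gm20634. Its counts depend on how reads with several matches were assigned, which is not given in the sources used here, and Hist3h2a also overlaps Trim17.

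The remaining members were scarce. Of the 65, 45 exceeded 3 counts in at least 1 of the 9 organoid libraries labelled untreated and 5 did so in all of them, while 13 had 0 counts in all 9. Over all 27 libraries, 7 members had 0 counts throughout. Hist1h1t, Hist1h2aa and Hist1h2ba, which are known for their expression in male germ cells, were among them. The others were Hist1h2ao, Hist1h2ap, Hist1h2bq and Hist1h2br, in which 7.3%, 7.8%, 5.2% and 13.6% of the 100-base windows were unique. Counts of 0 in these 4 cannot be told apart from reads lost to their near-identical copies.

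**Figure D2:**
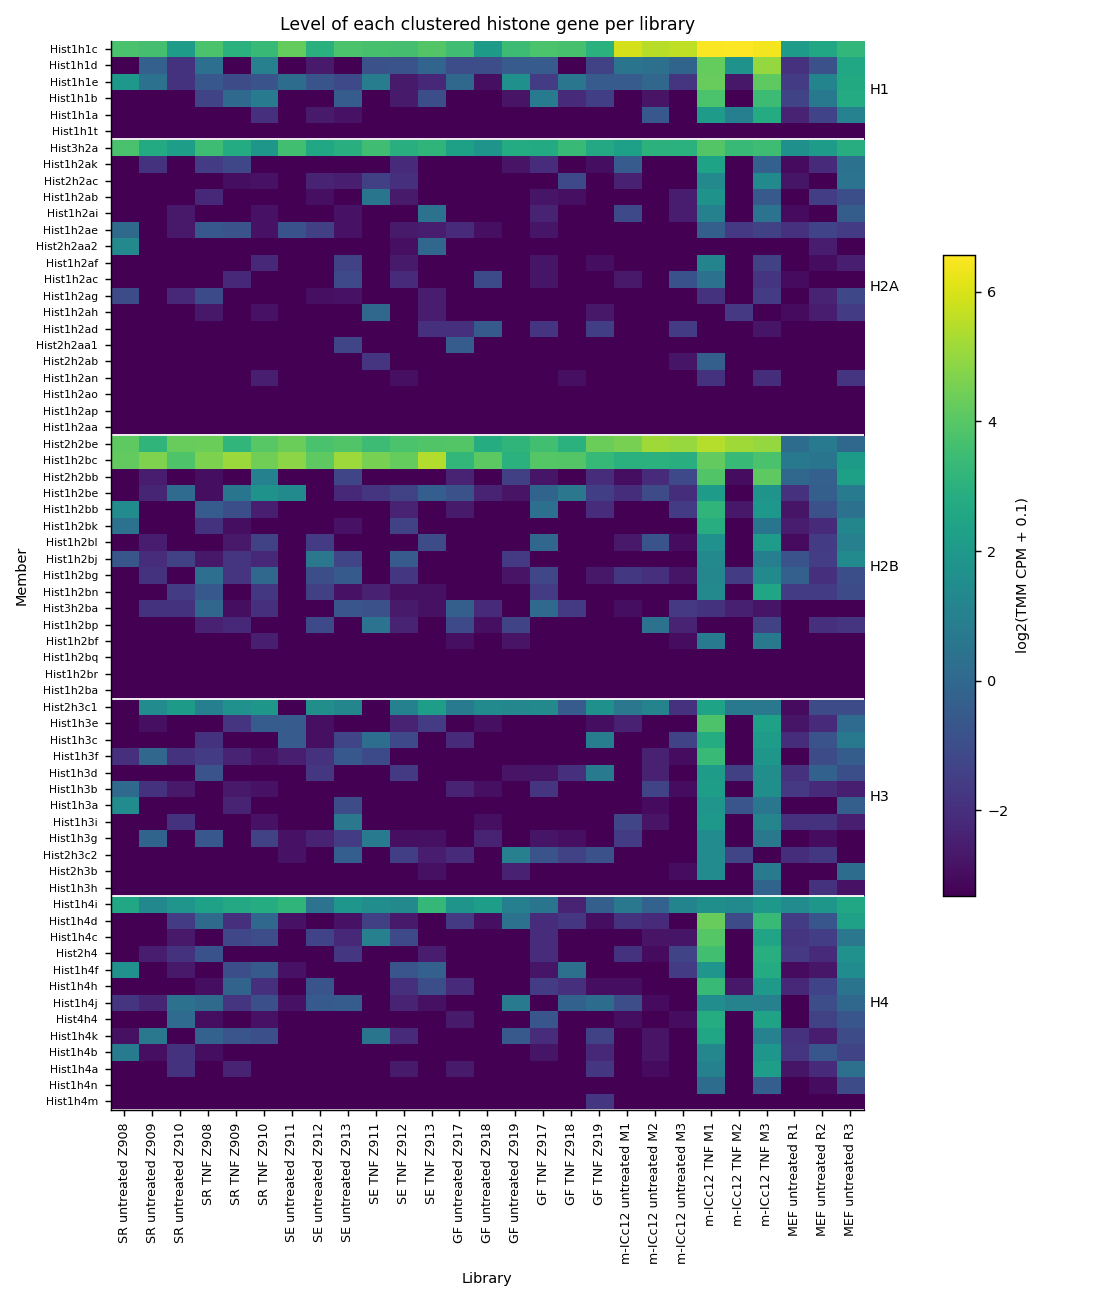
Level of each of the 65 members in each of the 27 libraries, as log2(TMM CPM + 0.1), with members grouped by histone class and ordered by their mean within it. A bright row marks each of the 6 abundant members, and 2 bright columns mark the m-ICc12 libraries labelled TNF of cultures M1 and M3.

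Clustered H2A and H2B genes often lie head to head and share the DNA between their starts. Among the members, 12 such pairs had their starts less than 500 bases apart (176 to 306 bases), and all 12 joined an H2A to an H2B gene. Both abundant H2B genes belonged to such a pair. Hist1h2bc had a mean of 19.3 CPM in organoids labelled untreated, but its partner Hist1h2ac, 251 bases away, had 0.0804. Hist2h2be had 13.8 CPM and its partner Hist2h2ac, 239 bases away, had 0.0197. The H2A side was thus scarce in these libraries although the H2B side was among the most abundant members. The models of Hist1h2ac and Hist2h2ac carry a stem-loop, followed by 2010 and 57 bases, and those of Hist1h2bc and Hist2h2be hold no match.

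Both stretches between the starts are shown because they hold the promoters of 1 abundant and 1 scarce gene each. They are the RefSeq promoters (GRCm38.p6) of the H2A partners, Hist1h2ac at chr13:23683910-23684209 and Hist2h2ac at chr3:96220831-96221130, both on the minus strand. Capitals mark the octamer ATTTGCAT, the box CCAAT and the box TATAAA, each on either strand.
Hist1h2ac: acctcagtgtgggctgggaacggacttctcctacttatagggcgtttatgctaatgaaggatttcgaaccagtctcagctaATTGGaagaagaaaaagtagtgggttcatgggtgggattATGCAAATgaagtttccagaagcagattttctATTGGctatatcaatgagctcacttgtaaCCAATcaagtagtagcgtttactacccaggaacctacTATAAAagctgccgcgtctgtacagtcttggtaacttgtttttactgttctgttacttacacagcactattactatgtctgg
Hist2h2ac: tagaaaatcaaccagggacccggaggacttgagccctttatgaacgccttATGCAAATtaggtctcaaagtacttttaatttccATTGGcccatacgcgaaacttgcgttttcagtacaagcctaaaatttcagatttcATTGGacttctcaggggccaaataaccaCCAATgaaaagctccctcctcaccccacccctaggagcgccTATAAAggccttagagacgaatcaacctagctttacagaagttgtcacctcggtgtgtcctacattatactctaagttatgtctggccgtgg

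Both windows hold the octamer, known as a binding site of Oct-1 in H2B promoters, and CCAAT boxes on both strands. Promoters from 250 bases before to 50 bases after the start were matched for 60 of the 65 members. The octamer occurred in 12 of them (20%), namely in 7 of 18 H2A and 5 of 14 H2B promoters and in none of the other classes, against 1.74% of 32851 mouse promoters. CCAAT occurred in 51 (85%) against 37.4% of all promoters, but in only 3 of 12 H4 promoters. TATAAA occurred in 35 (58.3%) against 13.6%. The windows of head-to-head partners overlap, so a match in the shared stretch can be counted for both genes. These are letter matches and not binding sites shown by data.

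Germ-free origin was asked about by comparing the 3 GF with the 6 SPF organoid libraries labelled untreated, a contrast that played no part in the choice of genes. Of the members, 9 passed the filter on low counts (10 counts or more in no fewer than 50% of a group). In edgeR's quasi-likelihood test none of the 9 reached an adjusted p under 0.05, nor did any in DESeq2, against 0.0325% of 12315 genes in edgeR. In edgeR 1 member, Hist1h2bc, had an unadjusted p under 0.05. It also passed the thresholds that the paper used, a p of 0.05 without adjustment together with a log2 change of 0.5 in either direction, and was lower in GF. Of all genes, 2.54% passed them. The median log2 change of the 9 members was -0.39, against -0.01 over all genes tested.

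Hist1h2bc encodes an H2B that differs little from the others of its family. It had 9.40, 17.0 and 7.95 CPM in the 3 GF libraries labelled untreated and between 14.1 and 35.2 CPM with a median of 21.7 in the 6 SPF libraries, so that 1 GF library lay inside the SPF range. In the libraries labelled TNF of the same cultures it had 15.7, 15.1 and 9.87 CPM in GF and between 18.6 and 42.6 in SPF, without overlap. The log2 change was -1.03 ± 0.35 (SE) in the libraries labelled untreated, with an unadjusted p of 0.0089 and an adjusted p of 1.00 in edgeR's quasi-likelihood test. It was -1.02 ± 0.28 in those labelled TNF and -1.07 ± 0.27 for the sum of both libraries per culture. With these sums, DESeq2 called Hist1h2bc at an adjusted p under 0.05, as 1 of 24 genes called among 12970, and edgeR did not (adjusted p = 0.68).

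The other abundant members did not pass in the libraries labelled untreated. Their log2 changes were -0.60 ± 0.36 for Hist2h2be, -0.73 ± 0.49 for Hist3h2a, -0.39 ± 0.47 for Hist1h1c and -0.42 ± 0.74 for Hist1h4i, with unadjusted p between 0.11 and 0.58 in edgeR. Hist1h4i had 1.32, 0.0961 and 0.703 CPM in the GF libraries labelled TNF and 2.40 to 9.46 CPM in the SPF ones, although its groups overlapped in those labelled untreated. In the libraries labelled TNF its log2 change was -2.97 ± 0.79, with an unadjusted p of 0.0017 and an adjusted p of 1.00 in edgeR. The summed CPM lay between 40.3 and 50.7 in GF and between 53.9 and 93.8 in SPF libraries labelled untreated, and between 53.0 and 61.0 and between 61.7 and 102 in those labelled TNF. Without Hist1h2bc, these sums overlapped in both sets (23.3 to 41.3 against 36.7 to 70.2, and 37.8 to 46.1 against 40.5 to 63.3 CPM). In bulk samples, fewer cells that make an mRNA and less of it per cell cannot be told apart.

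The 2 SPF facilities were compared in the same way. None of 9 members reached an adjusted p under 0.05 in SR against SE in edgeR or DESeq2, and none had an unadjusted p under 0.05, against 0% of 12219 genes at the adjusted and 3.08% at the paper's thresholds. Hist1h2bc had 18.4, 25.0 and 14.1 CPM in SR and 28.9, 17.3 and 35.2 CPM in SE, a log2 change of -0.49 ± 0.33. The groups overlapped.

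Differences between single cultures were tested over all 18 organoid libraries, with the label as a further term. The test takes all cultures together, so differences between the facilities are part of it. Of 12 members tested, 1 reached an adjusted p under 0.05 in edgeR's quasi-likelihood test, against 12% of 12104 genes, and the same member alone had an unadjusted p of at most 0.05, against 23.8% of genes. This was Hist1h2bc again (adjusted p = 0.000197), and it remained the member called when any 1 of the 9 cultures was left out. Its values ranged from 7.95 and 9.87 CPM in the 2 libraries of Z919 to 35.2 and 42.6 CPM in those of Z913. Within a culture it had 17.3 and 18.6 CPM in Z912, but 25.0 and 34.0 CPM in Z909 and 9.40 and 15.7 CPM in Z917. Hist2h2be (adjusted p = 0.27), Hist3h2a (0.48), Hist1h4i (0.61) and Hist1h1c (0.62) did not pass in this test, nor did Hist2h3c1 (0.24). DESeq2, which called 2556 of the 12104 genes, called Hist2h3c1 beside Hist1h2bc. Hist2h2be had 8.84 and 20.5 CPM in the 2 libraries of Z919, and Hist1h1c had 4.07 and 12.9 CPM in those of Z918. These were their widest pairs, and others were close, with 14.63 and 14.61 CPM for Hist2h2be in Z913 and 13.4 and 13.6 CPM for Hist1h1c in Z908.

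**Figure D3:**
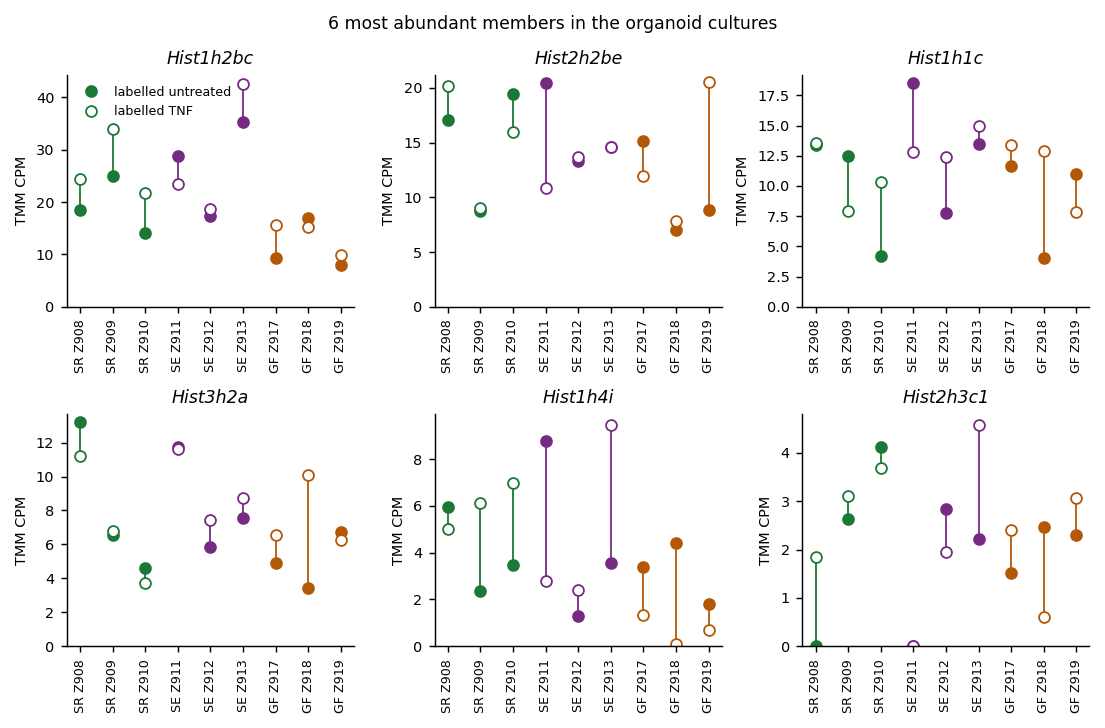
TMM CPM of the 6 most abundant members in the 9 organoid cultures, with closed symbols for the library labelled untreated and open symbols for that labelled TNF, joined per culture and coloured by facility. For Hist1h2bc the GF cultures have 7.95 to 17.0 CPM and Z913 has 35.2 and 42.6 CPM. For Hist2h2be the joined symbols lie far apart in Z919 (8.84 and 20.5 CPM) and nearly coincide in Z913 (14.63 and 14.61 CPM).

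Genes that work with the clustered histones were listed beside them. For GF against SPF, 0 of 9 replacement and variant histone genes, 16 genes of histone mRNA transcription and 3′ processing, 8 histone chaperones and 21 S phase genes reached an adjusted p under 0.05 in edgeR or DESeq2, and 1, 0, 0 and 0 had an unadjusted p under 0.05 in edgeR. For SR against SE the counts were 0 in both tools as well, and 1, 0, 1 and 0 without adjustment. No gene of cell cycle exit (9 tested), of the mitochondrial and quality list (3) and of the TNF targets (7) passed in either comparison. At an unadjusted p under 0.05 in edgeR there were 0, 2 and 1 genes for GF and 1 gene each for SR. The mitochondrial and quality list had 10 genes, among them RNAs without a poly(A) tail, and only 3 were tested. Between cultures, where 12% of all 12104 genes passed in edgeR, 7 of the 21 S phase genes passed (Mcm2, Mcm3, Mcm4, Mcm5, Rrm1, Mki67 and Top2a), as did 3 of the 9 replacement histones (H2afz, H2afj and H2afx), the chaperone gene Nasp and 4 genes of cell cycle exit (Alpi, Cdkn2b, Btg1 and Krt20). Of the 3′ processing list, which holds Slbp and Npat, 0 of 16 did so in edgeR, 4 had an unadjusted p under 0.05 and DESeq2 called 3. All 3 mitochondrial and quality genes (Lars2, mt-Nd1 and mt-Co1) and 1 TNF target (C3) passed. The part of these differences in the Hist1h2bc result was not tested.

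The label contrast in organoids belongs to those that chose the set and is described only. Of 12 members above the filter, 0 reached an adjusted p under 0.05 in edgeR, where 1.39% of genes did, and 1, Hist1h1b, was higher in the libraries labelled TNF by the paper's thresholds, where 2.91% did. DESeq2 called 0 as well, and Hist1h1b alone had an unadjusted p under 0.05 in edgeR. The summed CPM was higher in the library labelled TNF in 7 of 9 cultures, with ratios between 0.80 in Z911 and 1.40 in Z910. Hist1h1b, a linker histone gene of dividing cells, had 0 to 0.634 CPM in libraries labelled untreated and 0 to 1.66 CPM in those labelled TNF, a log2 change of 2.92 ± 1.17. The next largest changes were 1.22 ± 1.01 for Hist1h1d, -1.02 ± 0.79 for Hist1h1e, 0.93 ± 0.97 for Hist1h2be and 0.74 ± 1.19 for Hist1h4k, none of them much larger than its standard error. Hist1h2be overlaps Hist1h1e, and their reads may be shared.

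In m-ICc12 the 2 labels differed far more. The 3 libraries labelled untreated were alike, with summed levels of 105, 107 and 103 CPM, and the same 6 members held 94.5% to 96.1% of them. Hist1h1c led with 61.4, 46.1 and 48.7 CPM, followed by Hist2h2be with 23.0, 36.0 and 32.8 CPM. In the libraries labelled TNF the sums were 434 CPM in M1, 164 in M2 and 339.5 in M3, and the share of the 6 members was 40.8%, 94.2% and 43.3%. The members that were otherwise scarce thus made up most of the signal in M1 and M3, but not in M2.

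The 2 libraries of each m-ICc12 culture were set side by side by replicate number only. In culture M1, 51 members were higher in the library labelled TNF and none was lower, and in M3 48 were higher and 5 lower. In M2 the numbers were 17 and 16. In M1 31 members, and in M3 33 members, exceeded 3 counts only in the library labelled TNF. That of M1 was also the shallowest of all libraries, with a floor of 0.522 CPM against 0.0876 in its partner, and yet 48 members exceeded 3 counts there against 17.

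**Figure D4:**
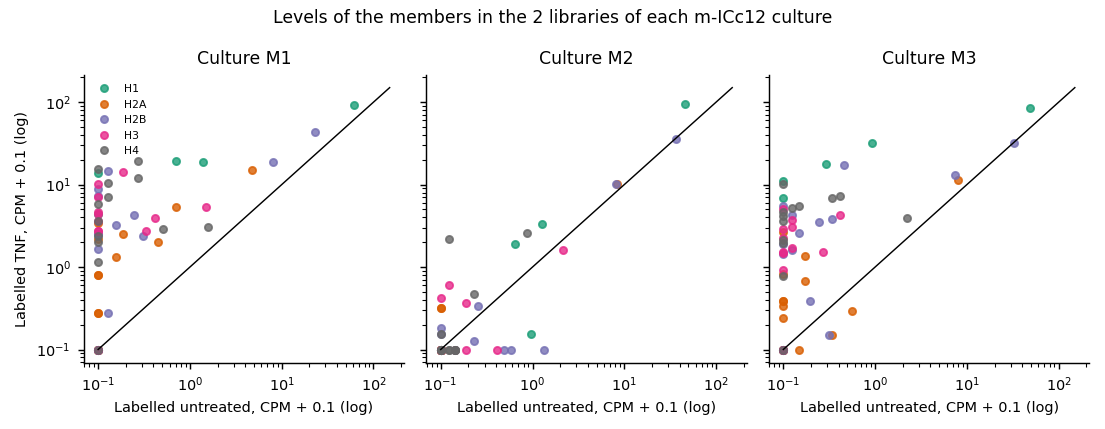
Levels of the 65 members in the 2 libraries of each m-ICc12 culture, as TMM CPM + 0.1 on log axes, coloured by histone class, with the line of equal levels. In M1 and M3 most points lie above the line, many at 0 in the library labelled untreated, whereas in M2 17 lie above and 16 below it.

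All classes took part. Between the libraries labelled untreated and TNF, H4 genes went from 2.28 to 84.6 CPM in M1 and from 2.76 to 55.2 in M3, and H3 genes from 2.04 to 60.2 and from 0.552 to 27.5. H1 genes went from 63.3 to 147 and from 49.7 to 153 CPM, H2B genes from 31.4 to 109 and from 41.2 to 86.8, and H2A genes from 5.78 to 32.9 and from 8.80 to 17.5. In M2, H1 genes went from 48.7 to 100.3 CPM and the H3 sum was 2.60 in both libraries. The difference of H1 in M2 lay in Hist1h1c, at 46.1 and 95.2 CPM.

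Of the 65 members, 42 passed the filter in this contrast. By the paper's thresholds 35 of them were higher in the libraries labelled TNF and 0 lower, where 3.75% of all genes passed, and at an adjusted p under 0.05 edgeR called 1, Hist1h1d, where 0.11% did. DESeq2 called 8 members and 46 of 11861 genes. Without culture M2, edgeR called 20 members and 93 of 12423 genes, without M3 it called 5 members and 18 of 12583 genes, and without M1 it called 1 member and 15 of 12652 genes. As this contrast chose the set, nothing is read from these counts. The fitted median log2 change of the 42 was 5.38, against -0.01 over all genes. It is inflated by 16 members at or under the floor of 3 counts in each library labelled untreated, and with those set to their bound against the floor of 0.0876 CPM the median was 4.39. Both medians are also raised by the filter. Among the m-ICc12 and organoid libraries labelled untreated, 8 members passed it. Most of the 42 thus passed only through the libraries labelled TNF, where they are high, so nothing is read from the medians.

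Single members show the same split between cultures. Hist1h1d had 1.29, 1.16 and 0.816 CPM in the libraries of M1, M2 and M3 labelled untreated and 18.8, 3.19 and 31.9 CPM in those labelled TNF, without overlap. Hist1h1b had 0, 0.0436 and 0 CPM and then 13.6, 0 and 10.8 CPM, so that M2 stayed at 0. Hist1h1e had 0.613, 0.873 and 0.192 CPM and then 19.1, 0.0536 and 17.5 CPM. Hist1h1c, the linker histone gene that was abundant under both labels, had 61.4, 46.1 and 48.7 CPM and then 91.4, 95.2 and 85.5 CPM, and so was higher in all 3 cultures, M2 included.

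The largest fitted changes fell on members with next to no counts in the libraries labelled untreated. Hist1h4h, an H4 gene, had 0.0292, 0 and 0 CPM and then 10.4, 0.0536 and 4.03 CPM, a mean of 55.3 times the floor of 0.0876 CPM. Hist1h2bk had 0 CPM in all 3 and then 7.14, 0 and 1.34 CPM, 32.3 times the floor. Hist1h2bn had 0 and then 2.44, 0 and 5.47 CPM, 30.1 times the floor, and Hist1h2bj had 0 and then 2.44, 0 and 1.82 CPM, 16.2 times the floor. These members were picked by their change and passed the filter only through the libraries labelled TNF, so nothing is read from these folds. In each of these the library of M2 stayed at or under 3 counts. These H2B genes share sequence, with 29.2%, 47.9% and 59.9% of windows unique in Hist1h2bk, Hist1h2bn and Hist1h2bj, so reads may have been split between them.

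The 2 libraries with the high histone signal were also those with Lars2 at 142200 and 43260 CPM, against 1528 CPM in the library labelled TNF of M2 and 1094 to 1465 CPM in those labelled untreated, and they had the lowest totals of the 6. The part of this in the result was not tested. Without TMM factors, the summed levels of these 2 libraries were 410.6 and 348.3 CPM. With Lars2 left out of the counts as well, they were 474.5 and 364.5 CPM. Of the 10 mitochondrial and quality genes, 3 were tested in this label contrast. In edgeR 1 of them, Lars2, was higher in the libraries labelled TNF at an adjusted p under 0.05, and DESeq2 called 1 as well. Of 21 genes of S phase, 0 reached an adjusted p under 0.05 in edgeR or DESeq2 and 0 had an unadjusted p under 0.05, with a median log2 change of -0.14. Mki67 had 452 and 475 CPM in the libraries labelled TNF of M1 and M3, and 422 and 627 CPM in their partners. Of 16 genes of histone mRNA transcription and 3′ processing and of 10 replacement histone genes, 0 reached that threshold in either tool, and 2 and 0 had an unadjusted p under 0.05. H3f3b had 877 and 1103 CPM in the libraries labelled TNF of M1 and M3, against 976 and 1012 CPM in the partners. The fits of these lists include M2, and the part of S phase or 3′ processing in the result was not tested.

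MEF showed a similar spread without a treatment. The summed level was 18.4 CPM in R1, 30.7 in R2 and 91.3 in R3, and the 6 members abundant in organoids held 68.2%, 56.1% and 30.2% of it. R3 was the library with the highest Lars2 (6619 against 732 and 1795 CPM) and the lowest total of the 3, and the part of this in the result was not tested. Hist1h1b had 0.309, 1.51 and 6.76 CPM, Hist1h1d 0.166, 0.452 and 6.04 CPM and Hist2h2bb 0.926, 0.728 and 4.85 CPM. Hist1h4i had 2.61, 3.66 and 5.88 CPM and Hist1h1c 4.37, 5.97 and 9.28 CPM, a narrower spread in relative terms than in the former 3 members.

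Between cell types, the order of the abundant members changed. Hist2h2be had 1.02, 1.58 and 0.879 CPM in MEF, below all 9 organoid libraries (6.97 to 20.4) and all 3 m-ICc12 libraries labelled untreated (23.0 to 36.0). Hist1h2bc had 1.33 to 4.12 CPM in MEF, below the 7.24 to 7.99 CPM of m-ICc12 and the organoid range from 7.95 CPM, whose lowest value was within that of m-ICc12. Hist1h1c was highest in m-ICc12 with 46.1 to 61.4 CPM, above the organoids (4.07 to 18.5), which overlapped MEF. Per kilobase, the order in MEF was led by Hist2h2bb, Hist1h4i, Hist1h1c, Hist1h1b and Hist1h2bj, of which Hist2h2bb had no unique 100-base window.

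As these levels chose the set, calls between cell types are given beside the background alone. In edgeR at an adjusted p under 0.05, 3 of 8 members tested differed between m-ICc12 and organoids (60.9% of all genes), 10 of 25 between MEF and organoids (67.2%) and 10 of 25 between MEF and m-ICc12 (59.3%). Without R3, 5 of 27 members were called in each of the last 2 comparisons, with 8249 of 13657 and 6992 of 13346 genes called. Of the 10 called between MEF and m-ICc12, 7 were higher and 3 lower in MEF, but against the m-ICc12 libraries labelled TNF 0 were higher and 7 lower, with 7024 of 12623 genes called.

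**Figure D5:**
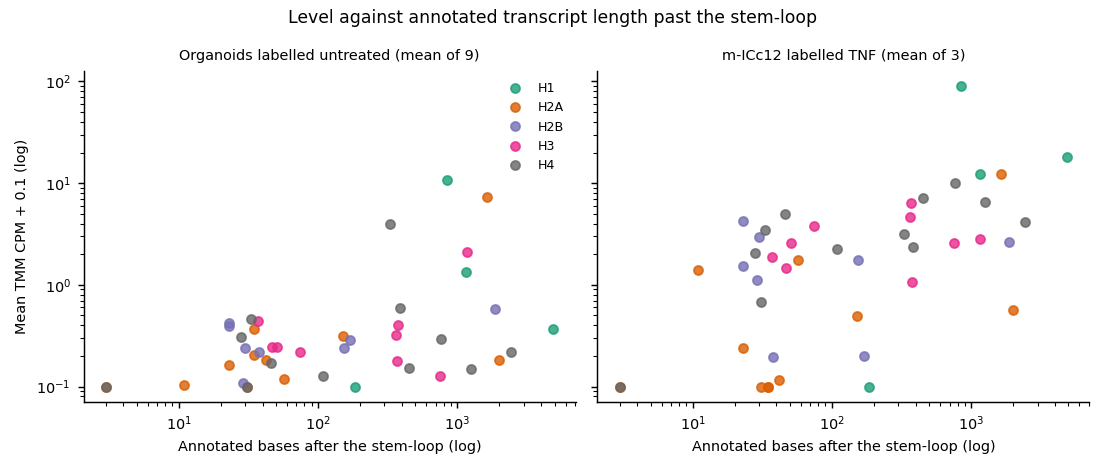
Mean TMM CPM + 0.1 against the annotated bases after the stem-loop, both on log axes, for the 44 members with a stem-loop match, in the 9 organoid libraries labelled untreated (left) and the 3 m-ICc12 libraries labelled TNF (right). On the left the 5 members with a mean above 1 CPM have 330 bases or more. On the right members with short ends also lie above 1 CPM, through cultures M1 and M3 and not M2.

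Level and annotated end were set side by side in the groups. In the organoids labelled untreated, 5 of the 22 members with at least 100 annotated bases after the stem-loop had a mean above 1 CPM, and 0 of the 22 with a shorter end did. The summed level of these 2 sets was 27.9 and 2.81 CPM. The 21 members without a stem-loop match summed to 33.9 CPM, of which Hist1h2bc and Hist2h2be made up nearly all. In the m-ICc12 libraries labelled untreated the counts were 5 of 22 and 0 of 22 as well, with sums of 64.5 and 1.07 CPM.

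The m-ICc12 libraries labelled TNF differed in this respect. There 17 of 22 members with the longer end and 13 of 22 with the shorter end had a mean above 1 CPM, with sums of 190.1 and 32.8 CPM. The means were carried by M1 and M3, where 46 and 40 of all members exceeded 1 CPM, against 9 in M2. In M2 the highest member with the shorter end was Hist1h3a at 0.51 CPM. In MEF 7 of 22 and 1 of 22 had such a mean, with sums of 28.4 and 6.48 CPM. That 1 member with the shorter end was Hist1h2bj, with 0.475, 0.251 and 2.60 CPM in R1, R2 and R3. A longer model gathers more reads and was itself drawn from sequenced transcripts, so these counts describe the libraries and carry no test.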

How the data were processed

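RNA of 18 organoid, 6 m-ICc12 and 3 MEF libraries was read as single ends. After trimming, the authors used STAR to align to GRCm38 (Ensembl release 91) and counted reads per gene. The deposited values are these counts, not normalized. The paper names GenomicRanges for counting and the submitters' processing notes name featureCounts and STAR 2.5.4b. Use of strand and of reads with several matches is not given in the sources used here. Poly(A) selection bears on mRNAs without a tail.

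Symbols came from GENCODE vM21 (233 identifiers had none). Genes reaching 10 counts in 50% or more of a group were tested with TMM and edgeR 4.0.16's quasi-likelihood test (R 4.3.3, libraries of the compared groups only, Benjamini-Hochberg over all genes), with DESeq2 1.42.0 as an alternative. Levels used TMM over all 27 libraries. Python 3.11.15 with pandas 2.3.3 computed levels and sequence features. The tests were checked on simulated data.

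Named were the members highest per kilobase in each cell type (10 in organoids, 5 in m-ICc12, 5 in MEF), the 5 largest changes in each label contrast, those called between facilities or cultures, and the highest of each class. The members and lists were chosen with earlier results of these data known. The 2 libraries of an organoid culture come from 1 mouse and so are paired, and the correlations of their deviations from the group means were 0.0609 to 0.2348. Alternatives were other tools, filters and thresholds, the culture as a block, the other label, and leaving out cultures.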

Additional observations from a re-analysis of the deposited data

Results flagged for a closer look

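Of 27 sets of 9 organoid libraries with 1 label tested for a value far from the rest (named members and the summed level, each with a library above 1 CPM), 7 held one, on 6 members. The nominal rate of 1 in 20 by chance does not hold for these sets. Each needed a library above 1 CPM, and some members, such as Hist1h4f, were named for a mean that rests on 1 library. Low counts are also skewed. In the libraries labelled untreated, Hist1h2be had 2.55 CPM (67 counts) in SE Z911, with the next highest at 0.988 CPM. Hist1h2bj had 1.41 CPM (43 counts) in SE Z912, next to 0.523. Hist1h2bk had 1.19 CPM (32 counts) in SR Z908, next to 0.0397. Hist1h4f had 3.13 CPM (84 counts) in the same SR Z908 library, next to 0.0581. Hist1h4k had 1.47 CPM (43 counts) in SR Z909, next to 0.577. In the libraries labelled TNF, SR Z910 stood apart for Hist1h2be with 3.32 CPM (83 counts), next to 1.41, and for Hist2h2bb with 1.96 CPM (49 counts), next to 0.141. The SR Z908 library above and SR Z910 labelled TNF had the highest Lars2 of the organoid libraries, 4638 and 5681 CPM. Members outside the 6 abundant ones summed to 20.6 and 15.6 CPM there, also the highest. SE Z911, SE Z912 and SR Z909 labelled untreated had Lars2 at 1511, 1729 and 1940 CPM. The part of Lars2 in these values was not tested.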

How the results depend on the processing

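Of 142 alternative values, 117 stayed close to the main value (counts within 1.5 times, levels within 1 SD) and 25 did not. For GF against SPF, 1 member in place of 0 was called by the paper's thresholds and 1 with summed libraries in DESeq2, an alternative chosen after seeing the data, both Hist1h2bc and lower in GF. DESeq2 called 2 members between cultures, Hist1h2bc and Hist2h3c1, in place of 1. For the label in organoids, the paper's thresholds called 1 member in place of 0, and leaving out 1 culture gave 0 to 1 (1 without Z913, Hist1h1b). The replicate block by culture changed no call there.

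For the label in m-ICc12, 1 member in the main comparison became 8 with DESeq2, 10 with every gene of at least 1 count, 35 by the paper's thresholds, and 1 to 20 without single cultures. The cultures share only a number there (correlations 0.0301, -0.0008 and 0.0926), and the replicate block called 0. Without the library labelled TNF of M3, or without those of M1 and M3, chosen after seeing the data, 0 were called, with 2 and 1 such libraries left. A lone library was assumed to vary like the others. For m-ICc12 against organoids, 3 (2 higher, 1 lower in m-ICc12) became 5 with every gene of at least 1 count (2 higher, 3 lower) and 30 with the libraries labelled TNF (all higher). For MEF against organoids, 10 (8 higher, 2 lower in MEF) became 6 with DESeq2 (3 each way), 8 with the organoid libraries labelled TNF (4 each way), 17 with every gene of at least 1 count, and 5 to 17 without single cultures (5 without R3, 17 without R1). For MEF against m-ICc12, 10 became 5 to 10 without single cultures (5 without R3, 6 without M1). Against the m-ICc12 libraries labelled TNF the balance turned, from 7 higher and 3 lower in MEF to 0 higher and 7 lower. Apart from the leave-outs, the cause was not tested.

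The mean summed level of m-ICc12 libraries labelled untreated, 104.9 CPM, became 110.5 without TMM and 110.7 without both TMM and Lars2. It became 312.6 with the libraries labelled TNF and 164.3 with that of M2 alone. Values under about 0.5 CPM rest on a few counts in the shallowest library.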
